A study of Mus musculus with 8 samples.

Results

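The genes described here encode the nuclear subunits of the mitochondrial oxidative phosphorylation system, grouped by complex. A protein-coding gene was a member when its symbol followed the naming pattern of the complex I (Nduf), complex II (Sdh), complex III (Uqcr), complex IV (Cox4 to Cox8 with a following letter a to c) or ATP synthase (Atp5) subunits, or was Ndufab1, Cyc1 or Cycs. Each gene was represented by its transcript row of highest total count. The rule gave 85 of 21643 genes: 38 of complex I, 4 of complex II, 9 of complex III, 16 of complex IV, 17 of ATP synthase (complex V) and cytochrome c itself. Of these, 79 passed the filter on low counts and were tested. The other 6 were Ndufa4l2, Cox6b2, Cox7a1, Cox7b2, Cox8b and Cox8c. The naming pattern leaves out Cox4i1 and Cox4i2, subunits of complex IV, and Atpif1, an inhibitor of ATP synthase, which are given apart. It takes in Ndufa4, which was named as a complex I protein and is now counted with complex IV. The subunits encoded by mitochondrial DNA were not analysed here.

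The study profiled polyribosome-associated mRNA, the messages that sediment with several ribosomes, after contextual fear conditioning, in which a chamber is paired with foot shock. The mice were C57Bl/6 animals of 7-9 weeks, and the controls were exposed to the context alone. There were 8 libraries, 1 each from conditioned and control mice, at 6 h and 1 h, from hippocampus and from tissue labelled frontal cortex. The design text and the extraction protocol name the prefrontal cortex and do not mention the hippocampus, and how many animals stand behind a library was not given. Because no combination of tissue, training and time had a replicate, the p-values below rest on the spread that the terms of each fit leave. Those terms were tissue, training and time, plus tissue by time for the interaction. The spread left holds other interactions of these factors and differences between libraries, which may in part be technical. In bulk tissue, fewer cells of a type and less RNA per cell cannot be told apart.

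The libraries held 2370973 to 5296986 counts, and hippocampus control 6 h had the smallest total. The hippocampus conditioned 1 h and cortex conditioned 1 h libraries agreed within counting noise: over 11338 genes the mean chi-square on 1 degree of freedom was 1.06, over the 79 tested members it was 1.02, and no gene was called different. They were therefore summed and counted as 1 library, so that the 1 h group has n = 3 and the 6 h group n = 4. Per-library values follow 1 order throughout: hippocampus conditioned, cortex conditioned, hippocampus control and cortex control, for 6 h and then for 1 h. Levels are CPM, counts scaled to the total of a library, with TMM factors. Summed markers of neurons were at 12311 to 34843 CPM in the libraries, and those of striated muscle at 10.95 to 60.4 CPM.

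Oxidative phosphorylation passes electrons from NADH through complex I, or from succinate through complex II, to complex III and then by the mobile carrier cytochrome c to complex IV, where oxygen is reduced. Complexes I, III and IV pump protons, and ATP synthase uses the proton gradient to make ATP. Most subunits are nuclear genes, translated in the cytosol and imported into mitochondria. Neurons depend heavily on this pathway for synaptic transmission. The promoters of many of these genes carry sites for the nuclear respiratory factors NRF1 and GABPA, and some of them for YY1.

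RefSeq promoters of assembly GRCm38.p6, 250 bases before to 50 bases after the transcript start, were found for 70 of the 85 members, as 75 windows. The NRF1 motif, searched as GCGC and TGCGC with 1 free base between them, occurred on either strand in 24% of them, against 4.60% of all 32851 promoters of the same length. CCGGAAG, the GABPA motif, occurred in 22.7% of the member windows, against 8.86% of all promoters, and AANATGGCG, the YY1 motif, in 13.3%, against 2.38%. TATAAA was found in 12% of the member windows, against 13.6% of all promoters. The median GC content was 57.7% in the member windows, against 52.7% in all promoters, and GC-rich windows hold GC-rich letters more often. The NRF1 letters were in 10 of the 42 windows of members that fell at 6 h and in 8 of the 33 windows of the other members. The GABPA letters were in 14 of the 42 windows and in 3 of the 33. The 33 windows include those of Cox6b2, Cox7a1, Cox7b2 and Cox8b, which were not tested, and of Cycs, which rose. None of these held NRF1 or GABPA letters. The windows below hold the match in capitals, with up to 20 bases on each side, read 5′ to 3′ on the strand of the gene (the GABPA letters may lie on the opposite strand). They are shown for members among the 4 largest falls of complexes I, III, IV and V, which were 16 in number, 14 of them with a promoter entry. Of these 14, 10 held NRF1 or GABPA letters and 4, Ndufb2, Uqcr10, Cox5b and Cox7a2, held neither. The share with either set of letters was not counted over all members or all promoters, so these counts show no link to the falls. The windows of Atp5g2, Atp5k, Ndufa11 and Cox6a1 share the same NRF1 letters, and those of Ndufb7, Uqcr11 and Atp5e hold GABPA letters.
Atp5g2 NRF1 (chr15:102671060-102671109, minus strand): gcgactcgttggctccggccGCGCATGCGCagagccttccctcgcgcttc
Atp5k NRF1 (chr5:108434420-108434469, minus strand): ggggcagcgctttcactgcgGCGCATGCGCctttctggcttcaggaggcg
Ndufa11 NRF1 (chr17:56717682-56717731, plus strand): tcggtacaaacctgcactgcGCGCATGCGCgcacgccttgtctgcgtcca
Cox6a1 NRF1 (chr5:115349091-115349140, minus strand): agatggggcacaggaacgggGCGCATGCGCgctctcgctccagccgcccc
Ndufb7 GABPA (chr8:83566718-83566757, plus strand): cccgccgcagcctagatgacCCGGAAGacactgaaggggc
Uqcr11 GABPA (chr10:80406861-80406907, minus strand): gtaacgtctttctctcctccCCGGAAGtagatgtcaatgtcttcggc
Atp5e GABPA (chr2:174464177-174464223, minus strand): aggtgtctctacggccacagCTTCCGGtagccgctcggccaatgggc
A match is a run of letters, and binding was not measured here.

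Most messages of the respiratory chain were lower at 6 h than at 1 h. Of the 79 tested members, 46 fell, 1 rose and 32 did not pass the test. Over all 16378 rows of the same fit, 17.2% were called lower and 20.5% higher. The member that rose was Cycs. The median log2 change of the members was -1.11, against -0.03 for all rows, and 70 of the 79 were below 0. For 54 members every 6 h library was below every 1 h library, which held for 21.5% of 9611 genes, and for Cycs alone every 6 h library was above every 1 h library, which held for 25.9% of genes. The members took 0.545% to 0.675% of a library's counts at 6 h, against 0.878% to 1.04% at 1 h. Summed markers of neurons were at 23346 to 34843 CPM at 6 h, against 12311 to 15520 CPM at 1 h, with 3 of the 8 genes higher, 2 lower and none at 0 in all libraries. Snap25 alone was at 15076 to 26670 CPM at 6 h and 5965 to 8392 CPM at 1 h, and the other 7 neuron markers summed to 7663 to 8270.0 CPM at 6 h and 6346 to 7404 CPM at 1 h. Summed markers of astrocytes were at 1593 to 3079 CPM at 6 h and 1346 to 1559 CPM at 1 h, and those of erythrocytes at 12.7 to 92.5 CPM and 86.0 to 126.9 CPM. Of the 8 astrocyte genes 2 were called higher and 2 lower, with a median log2 change of 0.08. The part of these shifts in the result was not tested.

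**Figure D1:**
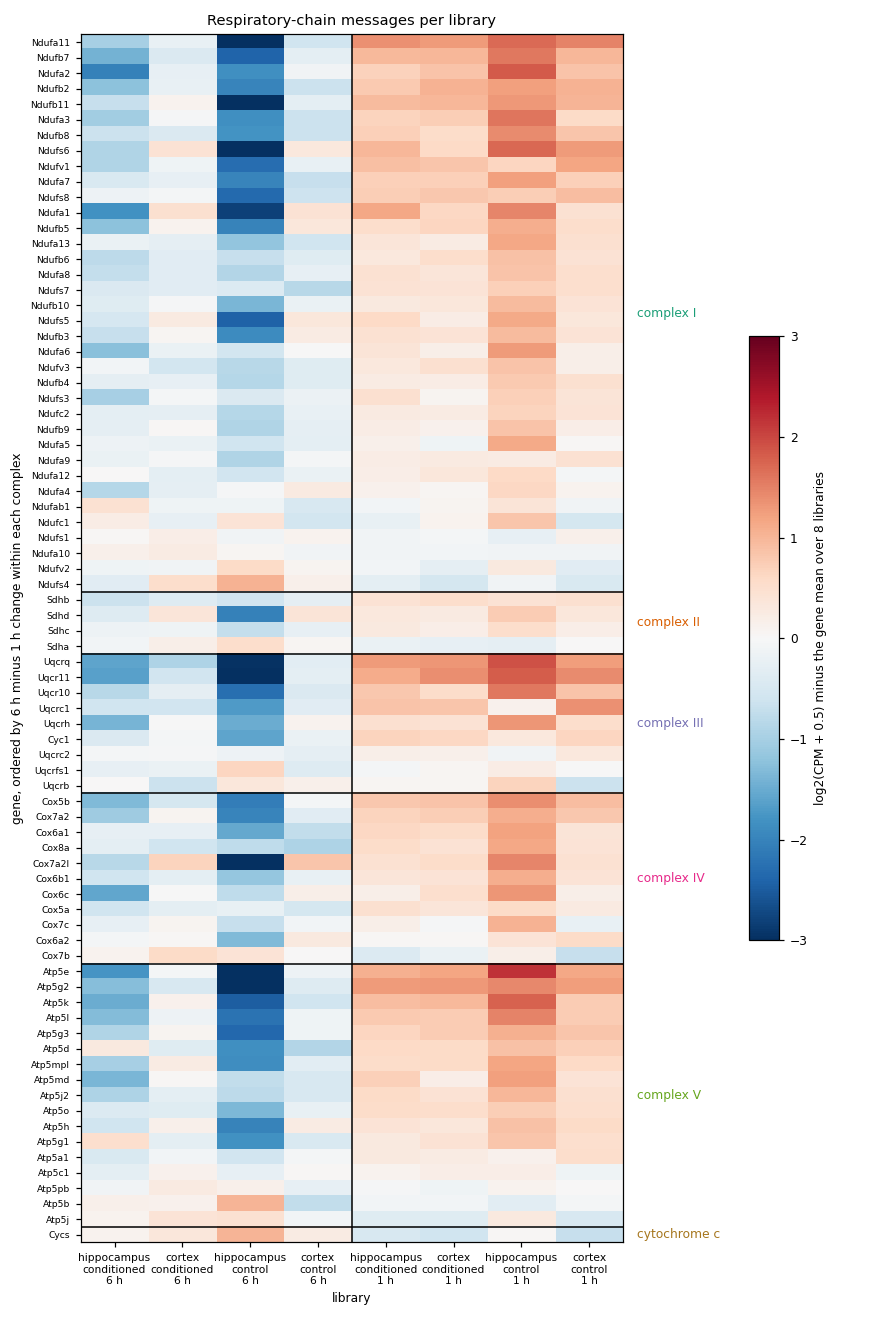
Levels of 78 of the 79 tested members (rows, grouped by complex and ordered by their change with time) in the 8 libraries (columns, 6 h on the left and 1 h on the right of the line). Colour gives log2(CPM + 0.5) minus the mean of the gene over the 8 libraries, with the scale ending at -3 and 3, so that lower values share its darkest colour. Most rows are blue at 6 h and red at 1 h, and the hippocampus control 6 h column is the lowest library for 51 of the 79 members.

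The number of calls rested on single libraries. With the cortex control 1 h library left out, 0 members and 0 of 16464 rows passed (5532 rows had an unadjusted p under 0.05), although all 46 members that fell in the full fit kept their direction and the median of the members was -1.32. Without the hippocampus control 1 h library 21 members fell, against 11.1% of all rows called in either direction. Without the conditioned 1 h pair and the hippocampus control 6 h library together, 23 members fell and none rose, against 6.71% of all rows called, and the median of the members was -0.85. With upper-quartile scaling the median of all rows moved to -0.15 and that of the members to -1.22.

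Complex I, the NADH dehydrogenase, is an L-shaped enzyme whose matrix arm carries the flavin and the iron-sulphur clusters and whose membrane arm pumps protons. Of its 37 tested genes 22 fell, none rose and 15 did not pass, with a median log2 change of -1.06, and in 27 the 6 h libraries lay below the 1 h libraries without overlap. The largest fall was that of Ndufa11, an accessory subunit of the membrane arm, at 8.36, 14.7, 0.576 and 11.1 CPM at 6 h and 45.5, 42.4, 56.8 and 48.6 CPM at 1 h. The 0.576 CPM in the hippocampus control 6 h library were a single count, and the highest 6 h library was far below the lowest 1 h library. The log2 change was -2.66 (SE 0.49, edgeR adjusted p = 0.00689).

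Ndufb7, another accessory subunit of the membrane arm, stood at 5.11, 10.5, 2.31 and 11.7 CPM at 6 h and 28.5, 29.3, 43.9 and 29 CPM at 1 h, a change of -2.22 (SE 0.42, edgeR adjusted p = 0.00724). Ndufa2, an accessory subunit of the matrix arm, stood at 3.48, 13.2, 4.04 and 14.6 CPM at 6 h and 26.1, 29, 58.1 and 29.3 CPM at 1 h, a change of -2.15 (SE 0.49, edgeR adjusted p = 0.0111). Ndufb2 stood at 4.18, 8.92, 2.31 and 6.53 CPM at 6 h and 18.7, 22.5, 25.3 and 22.2 CPM at 1 h, a change of -2.11 (SE 0.36, edgeR adjusted p = 0.0064). In all 3 the libraries of the 6 h group lay below those of the 1 h group, and both hippocampus 6 h libraries lay below both cortex 6 h libraries.

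Among the nuclear core subunits, Ndufv1, which binds NADH and the flavin, was at 36.7, 64, 13.8 and 59.5 CPM at 6 h and 130.2, 124, 108 and 158 CPM at 1 h, a change of -1.79 (SE 0.31, edgeR adjusted p = 0.0064). Ndufs8 (-1.64), Ndufs7 (-1.08) and Ndufs3 (-0.87) also fell on the log2 scale, all of them subunits near the quinone site or the cluster chain leading to it. Ndufs1, the largest subunit, was at 68, 77.3, 62.3 and 72.4 CPM at 6 h and 61.7, 64.2, 56.3 and 74.8 CPM at 1 h, and its log2 change of 0.09 (SE 0.22) did not pass. Ndufv2, which carries an iron-sulphur cluster beside Ndufv1, had a log2 change of 0.22 (SE 0.24), which did not pass either. In both of them the 6 h and 1 h libraries overlapped. Side by side, the log2 changes of the NADH-oxidising partners were -1.79 for Ndufv1 and 0.22 for Ndufv2, and with the GC content and length offsets described below they were -0.88 (SE 0.20) and -0.56 (SE 0.19).

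The other complex I genes that fell had log2 changes between -0.87 (Ndufc2) and -1.97 (Ndufb11). Ndufs6, an accessory subunit needed late in assembly, was at 5.34, 14.2, 0 and 13.1 CPM at 6 h and 21.1, 15.9, 35 and 25.6 CPM at 1 h, a change of -1.81 (SE 0.61, edgeR adjusted p = 0.0418), with no count in the hippocampus control 6 h library. Of the members that did not pass, the lowest was Ndufa1 (-1.62) and the highest Ndufs4 (0.78), an accessory subunit of the matrix arm. Ndufs4 was at 34.4, 62.8, 89.9 and 48.6 CPM at 6 h and 35.4, 29.7, 40.1 and 31.4 CPM at 1 h, with the hippocampus control 6 h library highest. Ndufab1, the mitochondrial acyl carrier protein, had a log2 change of -0.20 and also did not pass.

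Complex II, succinate dehydrogenase, is shared with the tricarboxylic acid (TCA) cycle and pumps no protons. Of its 4 genes 1 fell, Sdhb, the iron-sulphur subunit, at 41.8, 49.8, 43.8 and 53.9 CPM at 6 h and 88.5, 95.1, 88.3 and 92 CPM at 1 h. The groups did not overlap, and the log2 change was -0.95 (SE 0.22, edgeR adjusted p = 0.0115). Sdha, the flavoprotein that oxidises succinate, was at 336, 399.7, 514 and 372 CPM at 6 h and 308, 299, 293 and 356 CPM at 1 h, with overlapping groups and a log2 change of 0.36 (SE 0.24) that did not pass. The membrane anchors Sdhc and Sdhd had log2 changes of -0.67 (adjusted p = 0.0555) and -0.84 (adjusted p = 0.145) in edgeR, and the groups overlapped for Sdhd and not for Sdhc. Per kilobase, the level of Sdha over that of Sdhb was 3.17, 3.16, 4.62 and 2.71 at 6 h, against 1.37, 1.24, 1.31 and 1.52 at 1 h. With the GC content and length offsets the log2 changes were 0.14 (SE 0.20) for Sdha and -0.06 (SE 0.23) for Sdhb, neither passing. Sdhc was called lower with them, at -0.87 (SE 0.22, edgeR adjusted p = 0.0289).

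Complex III, the cytochrome bc1 complex, oxidises ubiquinol and reduces cytochrome c. Of its 9 genes 6 fell and all 9 log2 changes were below 0, with a median of -1.46. Uqcrq, a small supernumerary subunit, was at 6.73, 10.9, 2.31 and 17.1 CPM at 6 h and 52.2, 54, 81.8 and 51.8 CPM at 1 h, a change of -2.76 (SE 0.44, edgeR adjusted p = 0.0064). Uqcr11, the smallest subunit, was at 2.79, 6.4, 0.576 and 7.87 CPM at 6 h and 21.5, 26.3, 35.5 and 26.9 CPM at 1 h, a change of -2.70 (SE 0.46, edgeR adjusted p = 0.0064), and a single count stood behind the hippocampus control 6 h value. Uqcr10 was at 16.2, 24.4, 5.76 and 21.5 CPM at 6 h and 51.7, 43.3, 88.3 and 53.6 CPM at 1 h, a change of -1.94 (SE 0.43, edgeR adjusted p = 0.0106). For these 3 small subunits the highest 6 h library was a cortex library, and it was below every 1 h library.

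Uqcrc1, a core protein of complex III, was at 60.4, 62, 28.2 and 73.1 CPM at 6 h and 167, 166, 101 and 240.2 CPM at 1 h, a change of -1.62 (SE 0.29, edgeR adjusted p = 0.00641). Cyc1, the cytochrome c1 subunit that hands electrons to cytochrome c, was at 87.5, 112, 39.2 and 103 CPM at 6 h and 187, 182, 147 and 184 CPM at 1 h, a change of -1.16 (SE 0.27, edgeR adjusted p = 0.0118). Uqcrh, the hinge protein that helps c1 bind cytochrome c, had a log2 change of -1.46 and passed. The members that did not pass were Uqcrc2 (-0.29), the partner of Uqcrc1 in the core, Uqcrfs1 (-0.08), the Rieske iron-sulphur protein, and Uqcrb (-0.05). With the offsets Cyc1 was at -0.29 (SE 0.18) and Uqcrfs1 at -0.08 (SE 0.26), neither passing. Uqcrc2 was called lower with them, at -0.87 (SE 0.21, edgeR adjusted p = 0.0242), and Uqcrc1, at -0.63 (SE 0.23), was not.

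Cycs, the somatic cytochrome c that shuttles between complexes III and IV, moved the other way. It was at 97.3, 116, 186 and 109 CPM at 6 h and 65.6, 60.1, 92.9 and 55.9 CPM at 1 h, a change of 0.89 (SE 0.26, edgeR adjusted p = 0.0259). With TMM factors the lowest 6 h library, hippocampus conditioned, was just above the highest 1 h library, hippocampus control. Both held 419 counts of Cycs, of totals of 4378917 and 3931321 counts, so by library size alone the groups overlapped. Its call was lost without the cortex conditioned 6 h library, without the conditioned 1 h pair, and without either 1 h control. With the GC content and length offsets described below its log2 change was -0.18 (SE 0.18), which did not pass.

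Complex IV, cytochrome c oxidase, has a mitochondrially encoded catalytic core that nuclear subunits surround. Of its 11 tested genes 6 fell, none rose and 5 did not pass, with a median log2 change of -1.20. Cox5b, a zinc-binding subunit on the matrix side, was at 15.8, 27.5, 9.22 and 38.8 CPM at 6 h and 70.6, 72.8, 107 and 76.3 CPM at 1 h, a change of -1.98 (SE 0.38, edgeR adjusted p = 0.00761). Cox7a2, the widely expressed form of subunit VIIa, was at 14.4, 32.6, 7.49 and 24.2 CPM at 6 h and 49.8, 52, 66.8 and 54.9 CPM at 1 h, a change of -1.73 (SE 0.37, edgeR adjusted p = 0.0096). Neither gene had overlapping groups, and in both the hippocampus 6 h libraries were the lowest of all.

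Cox6a1, the non-muscle form of subunit VIa, was at 102, 103, 41.5 and 73.1 CPM at 6 h and 187, 179.9, 281 and 159 CPM at 1 h, a change of -1.50 (SE 0.35, edgeR adjusted p = 0.0116), and Cox8a, the widely expressed form of subunit VIII, had a log2 change of -1.38 (SE 0.26, edgeR adjusted p = 0.00708). Cox6b1 (-1.20) and Cox5a (-0.84) were the other members that fell. Cox7a2l was at 22.1, 63.8, 2.88 and 71 CPM at 6 h and 55.5, 58.3, 112 and 54.9 CPM at 1 h, and its log2 change of -1.30 (SE 0.71) did not pass. The 2.88 CPM of the hippocampus control 6 h library stood far below the other 7 libraries. Cox7b, with a log2 change of 0.52, was the only tested complex IV member above 0, and it did not pass.

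The isoforms of complex IV known from other tissues were low or barely counted. Cox6a2, the heart and muscle form of subunit VIa, passed the filter and was at 1.73 to 6.33 CPM at 6 h and 5.22 to 7.84 CPM at 1 h, and per kilobase the level of Cox6a1 was 13.7 to 28.6 times that of Cox6a2 at 6 h and 24.2 to 48.6 times at 1 h. The testis form Cox6b2 had 4 counts over all 8 libraries, the muscle forms Cox7a1 and Cox8b had 8 and 3, Cox7b2 had 5 and Cox8c none. Ndufa4l2, a relative of Ndufa4 known to be induced by low oxygen, had 14 counts, all of them at 1 h. Ndufa4 was at 39.7, 60.3, 71.5 and 87.5 CPM at 6 h and 79.2, 75.3, 112 and 78.7 CPM at 1 h, and its log2 change of -0.44 (SE 0.26) did not pass. Cox4i1, the main form of subunit IV and outside the naming pattern, was at 32.3, 89.2, 4.04 and 77.6 CPM at 6 h and 238, 229, 264 and 267 CPM at 1 h, a change of -2.83 (SE 0.56, edgeR adjusted p = 0.00849). Its lung form Cox4i2 had at most 1.83 CPM in a library.

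**Figure D2:**
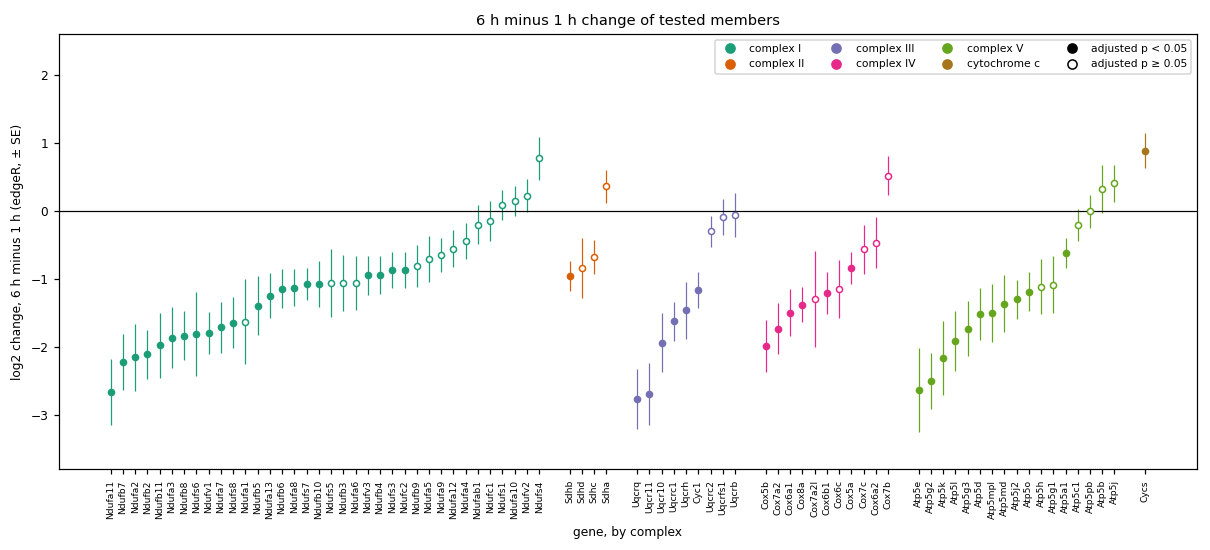
Log2 change at 6 h relative to 1 h (vertical axis, edgeR estimate with its standard error) of 78 of the 79 tested members, by complex. Filled points passed at an adjusted p of 0.05. Cycs is the only filled point above 0, and the falls reach -2.76 in Uqcrq.

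ATP synthase has a soluble F1 head, in which the alpha and beta subunits form the catalytic ring around a central stalk, and a membrane part with the proton-driven c ring, joined by a peripheral stalk. Of its 17 genes 11 fell, none rose and 6 did not pass, with a median log2 change of -1.30. Atp5e, the epsilon subunit of the central stalk, was at 5.57, 19.4, 1.15 and 18 CPM at 6 h and 42.6, 46.3, 92.3 and 45.7 CPM at 1 h, a change of -2.63 (SE 0.61, edgeR adjusted p = 0.012). The other small stalk subunit, Atp5d (delta), was at 244, 155, 55.3 and 107 CPM at 6 h and 300.5, 294, 364 and 326 CPM at 1 h, a change of -1.51 (SE 0.39, edgeR adjusted p = 0.0161). Both fell with no overlap, and hippocampus control 6 h held 2 counts of Atp5e. The gamma subunit Atp5c1, the shaft of the same stalk, had a log2 change of -0.20 (SE 0.24), which did not pass.

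The subunits of the catalytic ring had unlike values. Atp5b, the beta subunit, was at 2324, 2278, 4253 and 1257 CPM at 6 h and 1965, 1989, 1674 and 1994 CPM at 1 h. The hippocampus control 6 h library was its highest and the cortex control 6 h library its lowest, the groups overlapped, and the log2 change of 0.33 (SE 0.35) did not pass. Atp5a1, the alpha subunit, was at 513, 666, 473 and 671 CPM at 6 h and 859, 829, 766 and 1019.9 CPM at 1 h, a change of -0.62 (SE 0.22, edgeR adjusted p = 0.0477), with the hippocampus control 6 h library lowest. The assembled head holds equal numbers of both. Per kilobase, the level of Atp5b over that of Atp5a1 was 5.84, 4.41, 11.6 and 2.42 at 6 h, against 2.95, 3.09, 2.82 and 2.52 at 1 h. Atp5b alone made up 37.4 ± 14.1% of the summed CPM of the members at 6 h (SD, n = 4), against 22.0 ± 3.20% at 1 h (SD, n = 3).

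The c ring is made of a single protein that 3 genes encode with different import sequences. Atp5g2 was at 7.66, 13.6, 1.73 and 14.4 CPM at 6 h and 47.4, 47.9, 53 and 46.3 CPM at 1 h, a change of -2.50 (SE 0.41, edgeR adjusted p = 0.0064). Atp5g3 was at 58.5, 116, 21.3 and 100.2 CPM at 6 h and 172, 189, 230.2 and 198 CPM at 1 h, a change of -1.73 (SE 0.41, edgeR adjusted p = 0.0122). Atp5g1 was at 125, 72.1, 24.8 and 64.1 CPM at 6 h and 108, 119.8, 156 and 124 CPM at 1 h, with overlapping groups, and its log2 change of -1.08 (adjusted p = 0.0642 in edgeR) did not pass. Of the summed c-ring message per kilobase, Atp5g1 made up 69.4%, 40.0%, 56.3% and 40.2% at 6 h, against 37.2%, 37.9%, 39.9% and 38.0% at 1 h. The 1 h shares lay within 3 percentage points of each other, and the higher 6 h shares were those of the hippocampus libraries.

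Atp5k and Atp5l, the e and g subunits that lie in the membrane where ATP synthase dimers meet, both fell. Atp5k was at 1.62, 6.01, 0.576 and 3.46 CPM at 6 h and 10.8, 11.1, 19.7 and 9.67 CPM at 1 h, a change of -2.16 (SE 0.55, edgeR adjusted p = 0.0156), and Atp5l had a log2 change of -1.91 (SE 0.44, edgeR adjusted p = 0.0115). In the peripheral stalk, Atp5o, the subunit that tethers the stalk to the head, fell by 1.19 on the log2 scale, while Atp5h (-1.11), Atp5pb (-0.00) and Atp5j (0.41) did not pass. The small membrane subunits Atp5mpl, Atp5md and Atp5j2 fell, with log2 changes of -1.50, -1.36 and -1.30.

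**Figure D3:**
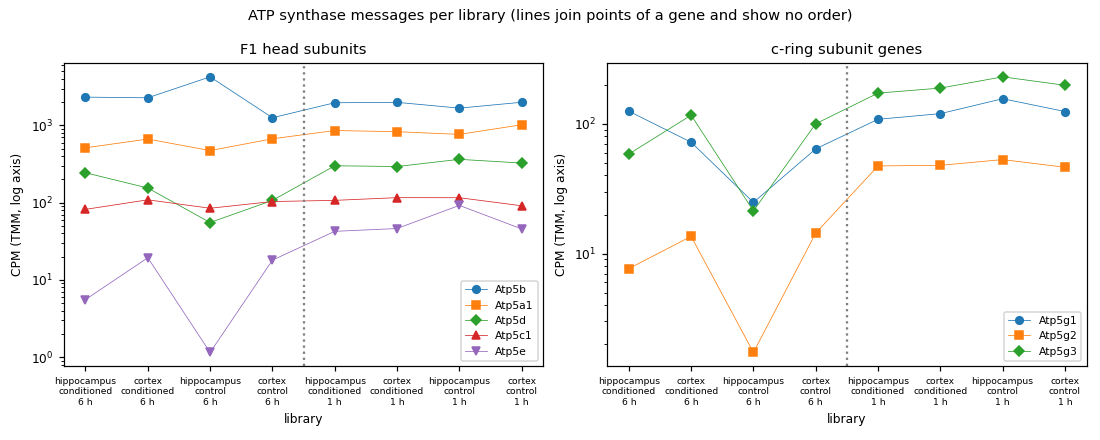
CPM (log axis) of the F1 head and central stalk genes (left) and of the 3 c-ring genes (right) in each library, 6 h left and 1 h right of the dotted line. Atp5b has its highest value, 4253 CPM, in the hippocampus control 6 h library, where Atp5e, Atp5d, Atp5g1, Atp5g2 and Atp5g3 have their lowest.

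Set per kilobase of transcript, Atp5b had the highest median level over the libraries, 1041 CPM per kilobase, followed by Atp5a1 (272), Atp5d (262), Atp5g1 (191), Cox6a1 (180.3), Atp5g3 (163.2) and Cox8a (162.9). The spread of Atp5a1 over libraries (191 to 413) overlapped that of Atp5d (59.4 to 391), so the order of these neighbours is not fixed by the data. At 1 h Cox6a1 (364 ± 113, SD, n = 3), Atp5a1 (355 ± 52.7), Atp5d (353 ± 36.0) and Cox8a (334.5 ± 103) were next after Atp5b. Their means lay closer together than these SDs. At 6 h the next were Atp5a1 (235 ± 41.6, SD, n = 4) and Atp5d (151 ± 86.1), and the mean of Sdha (139.8 ± 26.6) was above those of Cox8a, Atp5g1 and Atp5g3. The order below Atp5b was thus not fixed at either time. By contrast, the lowest library of Atp5b (656) was above the highest of Atp5a1. The lowest tested members were Cox6a2 (7.71) and Ndufab1 (3.01). Summed over its members, complex I was at 1252 ± 217 CPM at 6 h and 2174 ± 280 CPM at 1 h, complex III at 412 ± 62.7 and 809 ± 59.9 CPM, and complex IV at 425 ± 95.6 and 899 ± 265 CPM (SD, n = 4 at 6 h and n = 3 at 1 h in each). Complex II was at 545 ± 58.1 CPM at 6 h and 552 ± 25.9 CPM at 1 h, and complex V at 3779 ± 1030 and 4084 ± 141 CPM, differences within the SD of the 6 h libraries. With library sizes alone in place of TMM, complex II was at 497 ± 49.99 CPM at 6 h and 606 ± 29.2 CPM at 1 h, and complex V at 3388 ± 538 and 4485 ± 106 CPM, differences beyond those SDs. Without Atp5b, complex V was at 1251 ± 266 CPM at 6 h and 2202 ± 151 CPM at 1 h.

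**Figure D4:**
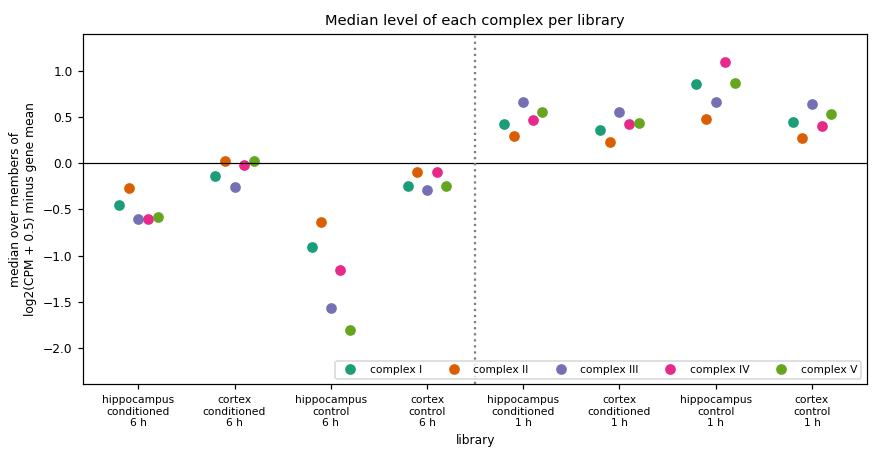
Median over the members of each complex of log2(CPM + 0.5) minus the gene mean, for each library, with 6 h on the left and 1 h on the right of the dotted line. Every complex is above 0 in all 1 h libraries, and the lowest point is complex V in the hippocampus control 6 h library, at -1.81.

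The change with time varied with transcript length and base composition, in the members and in all genes. The members' transcripts had a median length of 758 nt, against 3143 nt for 11951 genes, and a median GC content of 51.6%, against 50.4%. Across the 79 members the log2 change had a Spearman correlation of 0.51 with length and -0.48 with GC content, and across all genes of 0.37 and -0.77. These are descriptions across genes that share libraries. In transcripts under 600 nt, 16 of 25 members and 50.3% of all 187 genes were called lower, and from 600 to under 1000 nt 19 of 26 members and 42.3% of 504 genes. From 1000 to under 2000 nt these were 10 of 21 members and 28.3% of 2272 genes, and at 2000 nt or more 1 of 7 members and 13.4% of 8988 genes. Single short transcripts did not all follow it: Uqcrb (535 nt, 42.2% GC) had a log2 change of -0.05 and Uqcr11 (445 nt, 58.9% GC) one of -2.70, whereas Atp5mpl (366 nt, 42.9% GC) and Cox6a1 (571 nt, 58.8% GC) both had one of -1.50. Whether the trend arose in the tissue or in the amplification and sequencing of the libraries was not tested.

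With the trends of GC content and length taken out of each library, 22 members were lower and 1 was higher, against 4.13% and 7.81% of all rows. The median of the members was -0.51, against -0.01 for all rows. Of the 46 members that fell without the offsets, 18 were called lower with them and 41 kept their direction. The calls held for Uqcrq (-2.59), Cox5b (-1.70), Atp5l (-1.52), Atp5mpl (-1.51), Ndufa2 (-1.34), Atp5g2 (-1.31), Ndufb11 (-1.31), Atp5md (-1.28), Ndufa11 (-1.21), Atp5g3 (-1.18), Uqcr11 (-1.14), Cox7a2 (-0.98), Ndufb2 (-0.97), Atp5j2 (-0.97) and Ndufv1 (-0.88) among the genes named above. They were lost for Atp5e (-1.29), Atp5k (-1.02), Ndufb7 (-0.72), Uqcrc1 (-0.63), Uqcr10 (-0.51), Cyc1 (-0.29) and Sdhb (-0.06), among others. Cox6a1 (0.16), Cox8a (0.31) and Ndufs7 (0.57) changed sign and did not pass. Of genes that had not passed without the offsets, Ndufs1 (-0.48), Ndufv2 (-0.56), Cox7b (-0.03), Cox6a2 (0.29), Atp5g1 (0.26) and Atp5pb (0.01) changed sign, among others, and again did not pass. Ndufb3 (-1.15), Sdhc (-0.87), Uqcrc2 (-0.87) and Ndufa9 (-0.73) had not passed without the offsets and were called lower with them. By complex, 10 genes of complex I, 1 of complex II, 3 of complex III, 2 of complex IV and 6 of complex V were lower. The 1 member called higher was Atp5j (1.68, edgeR adjusted p = 0.0125).

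**Figure D5:**
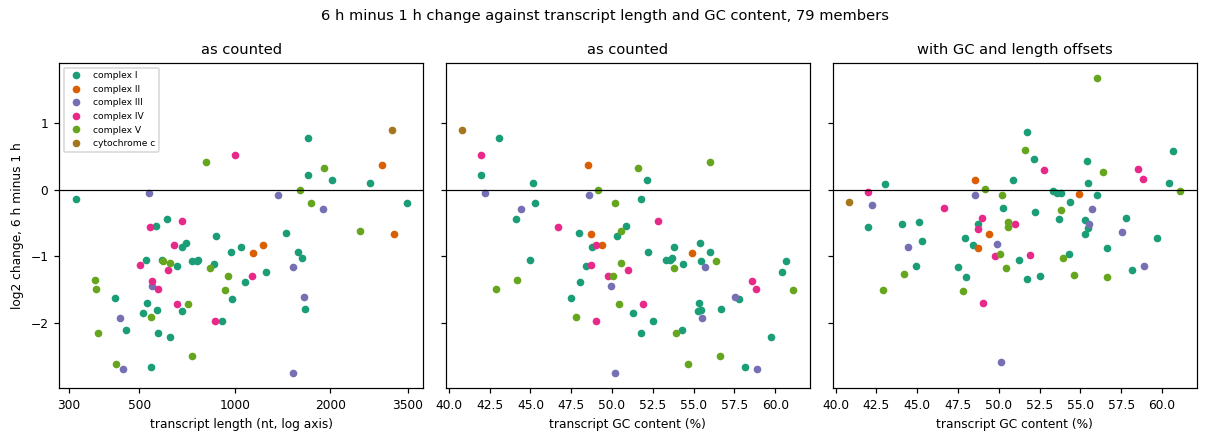
Log2 change at 6 h relative to 1 h of the 79 members against transcript length (left, log axis) and GC content (middle) as counted, and against GC content with the GC and length offsets (right). The points slope up with length and down with GC content as counted, and with the offsets the median lies at -0.51.

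Other genes of the pathway, in lists drawn up with earlier results of these data known, had members called in both directions, at shares to be read against the 20.5% of all rows called higher and the 17.2% called lower. Of 48 tested assembly factors of the respiratory complexes, 7 fell (14.6%) and 3 rose (6.25%), with a median log2 change of -0.22. Uqcc2, a complex III assembly factor, fell by 2.50, Coa3 by 2.04 and Cox14 by 1.86 on the log2 scale, the last 2 of them factors for the Cox1 subunit of complex IV. Cox20 (1.81), Ndufaf4 (1.41) and Ttc19 (0.81) rose. Of 12 regulators of mitochondrial biogenesis, 3 rose (25%) and 2 fell (16.7%), shares near those of all rows. Ppargc1a, the coactivator PGC-1alpha, was at 159.9, 199, 494 and 201 CPM at 6 h and 87.8, 88.7, 82.1 and 87.3 CPM at 1 h, a change of 1.56 (SE 0.34, edgeR adjusted p = 0.0103), with no overlap and with the hippocampus control 6 h library highest. Gabpa rose by 1.01 on the log2 scale, Esrra and Pprc1, a receptor and a coactivator of the same programme, had log2 changes of -1.45 and -1.32, and Nrf1 (-0.88) and Tfam (0.71) did not pass.

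Of 16 TCA cycle genes, 3 rose (Dld, Sucla2 and Dlat), 2 fell (Mdh2 and Suclg1) and the median was 0.05, shares of 18.8% and 12.5% that are near those of all rows. Of 16 import and carrier genes, 1 rose (6.25%) and 2 fell (12.5%). The riser was Slc25a4, the ADP and ATP exchanger of muscle and brain, at 702, 749, 3239.7 and 505 CPM at 6 h and 298, 321, 328 and 287 CPM at 1 h, a change of 1.84 (SE 0.47, edgeR adjusted p = 0.0161). Its level in the hippocampus control 6 h library was far above that in the other 6 h libraries. Timm13, an import chaperone, fell by 2.82 on the log2 scale. Atpif1, the ATP synthase inhibitor, had a log2 change of -0.28 and did not pass.

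Between tissues, no member passed the test. In the 6 libraries other than the conditioned 1 h pair, 0 of the 79 members were called, against 3.72% of 16123 rows (1.72% higher and 2% lower in hippocampus). DESeq2 and limma-voom also called 0 members. In edgeR 5 of the 79 members and 2172 of the 16123 rows had an unadjusted p under 0.05. The median log2 difference, hippocampus minus cortex, was -0.23, with 58 of 79 below 0. The smallest p was that of Ndufv1, at 36.7 and 13.8 CPM in the hippocampus 6 h libraries and 108.4 CPM in hippocampus control 1 h, against 64.0 and 59.5 CPM in the cortex 6 h libraries and 157.9 CPM in cortex control 1 h, a difference of -1.09 (SE 0.35, edgeR adjusted p = 0.0961). At each time the hippocampus value was the lower one. Uqcrc1 followed with a difference of -0.89 (SE 0.35, edgeR adjusted p = 0.211) and Atp5g3 with one of -0.96 (SE 0.39, edgeR adjusted p = 0.251). With either 1 h control library left out, the median difference of the members was -0.57, in fits with 1 residual degree of freedom. Each of these fits called 3 members lower in hippocampus and 0 higher. The shares of all rows called in either direction were 1.3% without cortex control 1 h and 1.2% without hippocampus control 1 h. Summed markers of striatal neurons were at 30.6 to 64.5 CPM in these hippocampus libraries and 180.1 to 358.9 CPM in the cortex libraries, and choroid plexus markers at 20.8 to 80.1 CPM and 5.04 to 9.02 CPM; their part in the differences was not tested.

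Between conditioned and control mice, no member passed the test, and 0 of 16378 rows were (0%), in edgeR, DESeq2 and limma-voom alike. In edgeR 296 rows and 0 members had an unadjusted p under 0.05. The median log2 difference of the members, conditioned minus control, was 0.02, with 36 of 79 below 0. The smallest p belonged to Ndufa4, with a difference of -0.52 (SE 0.26, edgeR adjusted p = 0.943), Ndufs8, with 0.69 (SE 0.38, edgeR adjusted p = 0.943), and Atp5d, with 0.71 (SE 0.39, edgeR adjusted p = 0.943). Atp5d averaged 232 ± 71.9 CPM in conditioned libraries (SD, n = 3) and 213 ± 154 CPM in controls (SD, n = 4).

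Within a tissue and time there was 1 conditioned and 1 control library, so their ratios have no test. In hippocampus at 6 h the median log2 ratio of the members, conditioned over control, was 0.71, and 27 of 79 were above 1, against 22% of 11323 genes. In cortex at 6 h it was 0.10, with none above 1 and none below -1, against 0.733% and 1.05% of genes. At 1 h it was -0.49 in hippocampus, with 5 below -1 and none above 1, against 3.06% and 2.96% of genes, and -0.02 in cortex, with none below -1 or above 1, against 0.715% and 2.32%. The hippocampus ratio at 6 h rests on the control library that was lowest for 51 of the 79 members, and the ratios at 1 h rest on the conditioned pair that agreed within counting noise.

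The change with time was larger in hippocampus in the point estimates of the full fit, and the difference between tissues did not pass. The size and the direction of this difference rested on the hippocampus control 1 h library. Without it the median interaction of time with tissue over the members was 0.09, with 36 of 79 below 0. Interaction fits that leave out 1 library other than the pair have 1 residual degree of freedom. In hippocampus control libraries the median log2 ratio of the members, 6 h over 1 h, was -1.93, with 60 of 79 below -1, against 29.6% of all genes. In cortex control libraries it was -0.67, with 23 below -1, against 12.9%. In conditioned libraries it was -0.99 in hippocampus, with 39 below -1, against 10.7%, and -0.52 in cortex, with 13, against 13.2%. Both conditioned ratios had in effect the same 1 h level, that of the pair that agreed within counting noise. They therefore differ through the 6 h libraries. The interaction of time with tissue had a median of -0.89 over the members, 69 of 79 were below 0, and 0 members and 0 of 16378 rows (0%) passed in edgeR, DESeq2 and limma-voom. In edgeR 21 members and 372 rows had an unadjusted p under 0.05. The smallest p belonged to Ndufa1, a small membrane subunit of complex I, at 1.62, 9.89, 0.576 and 9.6 CPM at 6 h and 16, 10.9, 20.2 and 9.67 CPM at 1 h. Its interaction was -3.96 (SE 0.76, edgeR adjusted p = 0.999), and its 6 h values were low in both hippocampus libraries. Ndufa2 and Cox6c followed with interactions of -2.83 (SE 0.59, edgeR adjusted p = 0.999) and -2.42 (SE 0.57, edgeR adjusted p = 0.999). Without the hippocampus control 6 h library 28 members were called lower and 1 higher, against 6.84% of rows, and without the hippocampus conditioned 6 h library 42 lower and 2 higher, against 16.3% of rows.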

How the data were processed

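Per the labels, polyribosome-associated RNA was depleted of ribosomal RNA, copied into cDNA from random and poly A primers, and amplified by SPIA and then PCR. The authors deposited raw read counts, whole numbers for each RefSeq transcript and each of the 8 libraries. The submitters' processing notes name the build mm9 and, with no role stated, TopHat 1.3.1, CASAVA 1.7, limma 3.12.3 and edgeR 2.612. How reads were counted, and whether by strand, was not given. Isoform rows of a gene can share reads, and reads without molecular identifiers are not independent molecules.

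Of 28157 rows, 97.9% were matched to a symbol through RefSeq GRCm38.p6, and lengths and GC content came from GENCODE transcripts of that assembly. Symbol matches gave 94 rows of 85 member genes, 7 of them with more than 1 row. In R 4.3.3, edgeR 4.0.16 (robust quasi-likelihood test, TMM, filterByExpr, Benjamini-Hochberg over all rows, threshold 0.05) was fitted on 7 libraries, the conditioned 1 h pair summed with a tissue code of 0.5, with tissue, training and time as additive terms (3 residual degrees of freedom), plus tissue by time for the interaction (2). The tissue difference came from the 6 libraries without the pair (2). Changes are log2 values, and an SE is the size of the change over the root of the F statistic. Ratios of 1 library to another used a prior count of 2. Means and SDs take the pair as 1 library. Offsets for GC content and length were natural splines with 5 degrees of freedom within each library. Alternatives were upper-quartile and relative log expression factors, DESeq2 1.42.0, limma-voom (limma 3.58.1), no filter, summed rows, the offsets and leaving out libraries. The script was tested on simulated data.

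The members, gene lists, tests and named genes were chosen with earlier results of these data known. Named genes were all of complex II, Cyc1, Cycs, the core subunits of complex I, the isoform groups, the 4 largest falls per other complex with an average log2 CPM of at least 2, and the 3 members of smallest p in each other test. Others named were chosen after their values were seen. A member that the rule named is not reported here.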

Additional observations from a re-analysis of the deposited data

Results flagged for a closer look

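In groups of 4 libraries, a gene was set apart when the gap between its highest or lowest library and the next, divided by the range, was above Dixon's 95% critical value. Chance sets apart about 1 in 20 such groups, and 2 of the 104 groups examined were. Uqcrfs1, the Rieske protein of complex III, was at 66.3 CPM in the hippocampus control 6 h library, above 35.7, 36.6 and 32.1 CPM in the other 6 h libraries. Ndufa10, an accessory subunit of complex I, was at 181.6 CPM in the hippocampus control 6 h library, above 160.5, 162.6 and 162.1 CPM in the other control libraries.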

How the results depend on the processing

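No paired analysis was possible because each combination of tissue, training and time had 1 library and the labels carry no replicate numbers. The time result was the one most open to the choice of libraries. Leaving out 1 library at a time gave 0 to 46 members lower and 0 to 2 higher, the 0 lower without the cortex control 1 h library. Without the conditioned 1 h pair 41 members were lower and 0 higher, and with hippocampus control 6 h left out as well 23 were lower and 0 higher. With the pair as 2 libraries 50 were lower and 2 higher. With GC content and length offsets 22 were lower, and of the named genes that had passed 4 changed sign: Cycs (-0.18), Ndufs7 (0.57), Cox6a1 (0.16) and Cox8a (0.31), none passing. Over all rows the offsets took the calls to 1956, against 6167. Upper-quartile factors, relative log expression factors, DESeq2, limma-voom, no filter and summed rows gave 44 to 54 members lower and 1 higher. The cause of these differences was not tested.

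For tissue, 1 member was lower without the filter and 1 was higher with the offsets. Leaving out either 1 h control library gave 3 members lower. Leaving out 1 library gave medians of the members from -0.57 to -0.08 for tissue and from -2.33 to 0.09 for the interaction. For the interaction, leaving out 1 library gave 0 to 42 members lower and 0 to 2 higher. The training result stayed at 0 members in every alternative run. The interaction with both the pair and hippocampus control 6 h left out was not run, since no residual degrees of freedom remained. With rows of a gene summed, complex I at 6 h was at 1476 CPM and complex V at 1 h at 4321 CPM. With library sizes alone, complexes II, III and V were at 497 CPM, 384 CPM and 3388 CPM at 6 h and at 606 CPM, 887 CPM and 4485 CPM at 1 h.

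The hippocampus control 6 h library had the fewest counts. Several members stood at 0 to 4 counts there, and their fold changes are the least certain. These members were low there in CPM as well, which is scaled to the library total, and the part of depth was not tested. With 2 or 3 residual degrees of freedom, a member that missed the threshold is not shown to be unchanged.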
